A study of Mus musculus with 23 samples.

Results

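The genes followed here are 34 interferon stimulated genes (ISGs) of the mouse, picked by their symbols from the 27466 genes of the count table. They comprise the transcription factors Irf7, Irf9 and Stat2, the RNA and DNA sensors Ifih1, Dhx58 and Zbp1, the IFIT genes Ifit1, Ifit2, Ifit3 and Ifit3b, the OAS genes Oas1a, Oas2, Oas3, Oasl1 and Oasl2, the GTPases Mx1, Mx2, Gbp2, Gbp3 and Gbp7, the ISG15 system with Isg15, Usp18, Herc6 and Trim25, the effectors Rsad2, Cmpk2, Bst2, Ifi44, Ifi35, Xaf1, Ifi27l2a and Rtp4, and the poly(ADP-ribose) polymerases Parp9 and Parp14. All 34 had an entry, and all 34 were among the 19255 genes that passed the filter on low counts.

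Type I interferons bind a receptor made of IFNAR1 and IFNAR2, which activates the kinases JAK1 and TYK2. The kinases phosphorylate STAT proteins, and a complex that holds STAT2 and IRF9 binds the interferon stimulated response element (ISRE) in front of ISGs. The products of ISGs sense viral nucleic acids, block translation or replication of viruses, and feed back on the pathway. In the testis, macrophages and other somatic cells of the interstitium are known to carry sensors of this pathway, while meiotic and haploid germ cells come to make up most of the organ as the first wave of spermatogenesis goes on.

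The study grew explants of testes from 6.5 days postpartum (dpp) CD-1 mice in α-MEM with KnockOut serum replacement, gentamicin and retinol, and asked how culture and freezing alter the transcriptome. Fresh explants were sampled on culture days 4, 16 and 30 (D4, D16, D30), and testes of matching age (10.5 dpp for D4, 22.5 dpp for D16, 36.5 dpp for D30) served as in vivo controls. The tissue was fresh, or had been thawed after controlled slow freezing (CSF), at 6.5 dpp and at D30. Explants were pooled within a library, their necrotic centre was cut away before RNA extraction, and the labels name no genetic change, no added interferon and no virus. The 21 libraries analysed comprise, in vivo, 4 of 6.5 dpp (1 fresh, 3 CSF), 3 of 10.5 dpp, 3 of 22.5 dpp and 2 of 36.5 dpp, and, in culture, 3 of D4, 2 of D16 and 4 of D30 (3 fresh, 1 CSF). The column of 6.5 dpp fresh replicate 3 repeats replicate 2, and 6.5 dpp fresh replicate 1 was left out because its levels had been found to be like those of cultured tissue.

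Levels are counts scaled to a fixed library total (CPM) on the library total, which ran from 28351546 to 69029328 counts. Fold changes come from edgeR with TMM factors, which lay between 0.645 and 1.15. A gene is said to rise or fall where its Benjamini-Hochberg adjusted p over all genes tested was under 0.05. Scaling on library size alone moved the median fold change of all genes by 0.64 on the log2 scale for D30 against 36.5 dpp, by -0.51 for 36.5 against 22.5 dpp, by -0.29 for 22.5 against 10.5 dpp and by 0.15 for D16 against 22.5 dpp, so fold changes are relative to these. The testis was recognised by its germ cell genes (Ddx4 and Dazl together 586 to 1608 CPM over all 7 groups), and haploid spermatid genes (Prm1, Prm2, Tnp1 and Acrv1 together) were at 13875 to 17388 CPM at 36.5 dpp, 267 to 1312 at D30, 7.68 to 52.2 at 22.5 dpp and at most 25.5 in every other group. In such whole tissue, fewer cells of a type and less RNA per cell cannot be told apart.

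The ISRE was looked for in the 250 bases in front of each start of transcription given by RefSeq (GRCm38.p6). Of the 34 members, 24 had 27 such windows. For 22 of these 27 windows the start was also that of a GENCODE transcript of the gene, so a missing match can depend on the start used. The letters GAAANNGAAA, searched on both strands, were found in 12 of these 27 windows (44.4%), each of a different gene, and in 2.98% of the 32851 windows of all genes. The palindrome TTCNNNGAA, the core of the gamma activated sequence (GAS), was found in 4 of the 27 windows (14.8%) and in 7.02% of all, and 1 of its matches shared bases with an ISRE match. The 130 bases in front of the start are shown for Isg15, Ifit1, Rsad2 and Gbp2, which moved together in the libraries described next, and for Herc6 and Trim25, which took their own course. Capitals mark matches to GAAANNGAAA or its complement TTTCNNTTTC. All are written 5′ to 3′ on the strand of the gene.
Isg15 (chr4:156200819-156200948, minus strand): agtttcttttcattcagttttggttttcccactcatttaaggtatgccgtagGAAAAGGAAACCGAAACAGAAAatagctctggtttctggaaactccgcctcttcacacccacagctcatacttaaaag
Ifit1 (chr19:34640759-34640888, plus strand): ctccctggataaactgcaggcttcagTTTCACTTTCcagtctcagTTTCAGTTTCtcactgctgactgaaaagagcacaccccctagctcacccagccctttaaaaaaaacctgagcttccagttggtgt
Rsad2 (chr12:26456453-26456582, minus strand): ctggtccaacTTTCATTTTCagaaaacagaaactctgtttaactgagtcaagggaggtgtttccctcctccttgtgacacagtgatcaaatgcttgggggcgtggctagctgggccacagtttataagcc
Gbp2 (chr3:142620533-142620662, plus strand): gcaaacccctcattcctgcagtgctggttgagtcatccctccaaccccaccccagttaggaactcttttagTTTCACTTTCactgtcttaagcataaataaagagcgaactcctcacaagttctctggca
Herc6 (chr6:57580862-57580991, plus strand): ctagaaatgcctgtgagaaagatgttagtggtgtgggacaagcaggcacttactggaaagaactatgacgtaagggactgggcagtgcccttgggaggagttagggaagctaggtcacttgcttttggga
Trim25 (chr11:88999273-88999402, plus strand): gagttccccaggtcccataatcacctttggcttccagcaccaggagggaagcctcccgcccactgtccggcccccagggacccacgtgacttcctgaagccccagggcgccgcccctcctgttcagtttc
Isg15 holds 3 overlapping matches from base -78, counted from the start of transcription, Ifit1 holds 2 from base -104, Rsad2 has 1 at -120 and Gbp2 has 1 at -59. Neither Herc6 nor Trim25 has these letters anywhere in the 250 bases. The same is true of Irf7, Ifit2, Oasl1 and Cmpk2, which were high in both libraries described next. Mx2, Usp18 and Rtp4, also high in both, had no window. Whether a match goes with the course of a member was not tested. Several members lie side by side: Ifit2, Ifit3, Ifit3b and Ifit1 fall within chr19:34550550-34650009, and Oasl2, Oasl1, Oas2, Oas3 and Oas1a within chr5:114896926-120907544. Reads shared by near-identical copies (Ifit3 and Ifit3b, the Oas1 family, the Gbp family) may have been split or lost in counting, so levels of single copies are uncertain. Reads from Parp9 and Dtx3l, from Irf7 and Phrf1, and from Dhx58 and its antisense transcript Dhx58os can mix if strand was not used in counting. Another 5 members (Irf9, Gbp7, Herc6, Rtp4 and Parp14) have an exon that overlaps another gene on the same strand, so their reads can be mixed or lost whatever the strand setting.

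In the levels of the members, a pair of libraries stood apart from the others of their stage. In 22.5 dpp replicate 2, 30 of the 34 members were more than 2-fold above every other 22.5 dpp library (0.1 CPM added to each level), against 2.05% of all genes tested. In the D30 CSF library 14 of the 34 were more than 2-fold above each of the 3 fresh D30 libraries, against 0.758% of all genes. Each of the 19 other libraries had between 0 and 3 members above its stage by this measure. Both statements describe single libraries, with no test, and 13 members were above in both: Irf7, Ifit1, Ifit2, Ifit3, Ifit3b, Oasl1, Mx2, Gbp2, Isg15, Usp18, Rsad2, Cmpk2 and Rtp4.

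**Figure D1:**
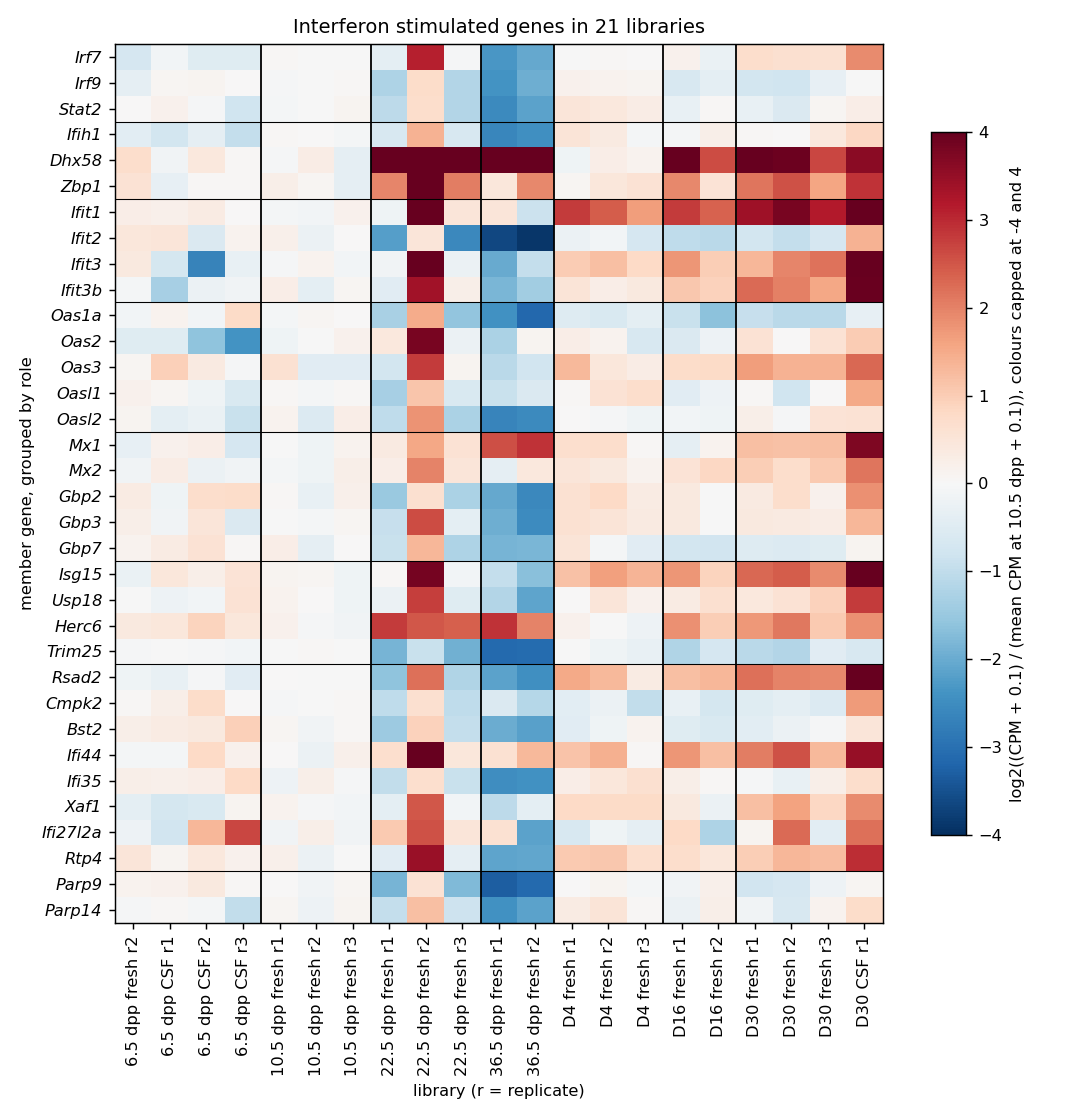
Level of each of the 34 members (rows, grouped by role) in each of the 21 libraries (columns), as the log2 ratio to the mean of the 3 libraries of 10.5 dpp with 0.1 CPM added, colours capped at -4 and 4. The columns of 22.5 dpp replicate 2 and of the D30 CSF library are red over most rows, the 36.5 dpp columns are blue except for Dhx58, Zbp1, Herc6, Mx1 and a few others, and Dhx58 and Herc6 are red from 22.5 dpp and D16 on.

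Ifit1, which binds viral RNA that lacks the cap of the host, was at 0.264, 10.8 and 0.474 CPM in 22.5 dpp replicates 1, 2 and 3. At D30 it was at 4.18, 5.6 and 3.6 CPM in the fresh libraries and at 32 CPM in the CSF library. Replicate 2 was thus 29.1 times the mean of the other 22.5 dpp libraries, and the CSF library 7.18 times the mean of the fresh ones. Rsad2, which encodes viperin and makes a chain-terminating nucleotide, was at 0.264, 4.94 and 0.379 CPM at 22.5 dpp, and at 5, 4.26 and 4.05 CPM in fresh and 38.9 CPM in CSF tissue at D30. Isg15, the ubiquitin-like modifier, was at 0.819, 12.6 and 0.727 CPM at 22.5 dpp and at 4.3, 4.69 and 3.22 CPM in fresh against 14.4 CPM in CSF tissue at D30. In all these genes the replicates on either side of the high library lay close together. Irf7, the factor that amplifies interferon production, reached 48 CPM in 22.5 dpp replicate 2 against 4.15 and 5.34 CPM beside it, and 20.7 CPM in the CSF library against 8.49 to 9.08 CPM. Usp18, which removes ISG15 and restrains the receptor, was at 12.6 CPM against 1.5 and 1.23 CPM, and at 13.1 CPM against 2.44 to 3.45 CPM.

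The 2 libraries differed in which members were high. In 22.5 dpp replicate 2 another 17 members were more than 2-fold above the other libraries, among them Oasl2 at 67.6 CPM against 9.45 and 8 CPM, Stat2 at 59.8 CPM against 17.7 and 16.2 CPM, and Oas2 at 7.11 CPM against 0.607 and 0.348 CPM. In the D30 CSF library Oasl2 was at 28.9 CPM against 18.7 to 28 CPM, Stat2 at 44 CPM against 24.7 to 39.1 CPM and Oas2 at 0.954 CPM against 0.431 to 0.68 CPM, so each lay above the fresh libraries by less than 2-fold. Mx1, a GTPase that blocks influenza viruses, was the 1 member more than 2-fold above in the CSF library alone. It was at 7.18 CPM there against 1.14 to 1.16 CPM in fresh tissue, and at 1.49 CPM in 22.5 dpp replicate 2 against 0.607 and 0.727 CPM. Dhx58, Herc6 and Trim25 were above by 2-fold in neither library. Trim25 just missed it in 22.5 dpp replicate 2, at 78.3 CPM against 39.6 and 38 CPM.

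**Figure D2:**
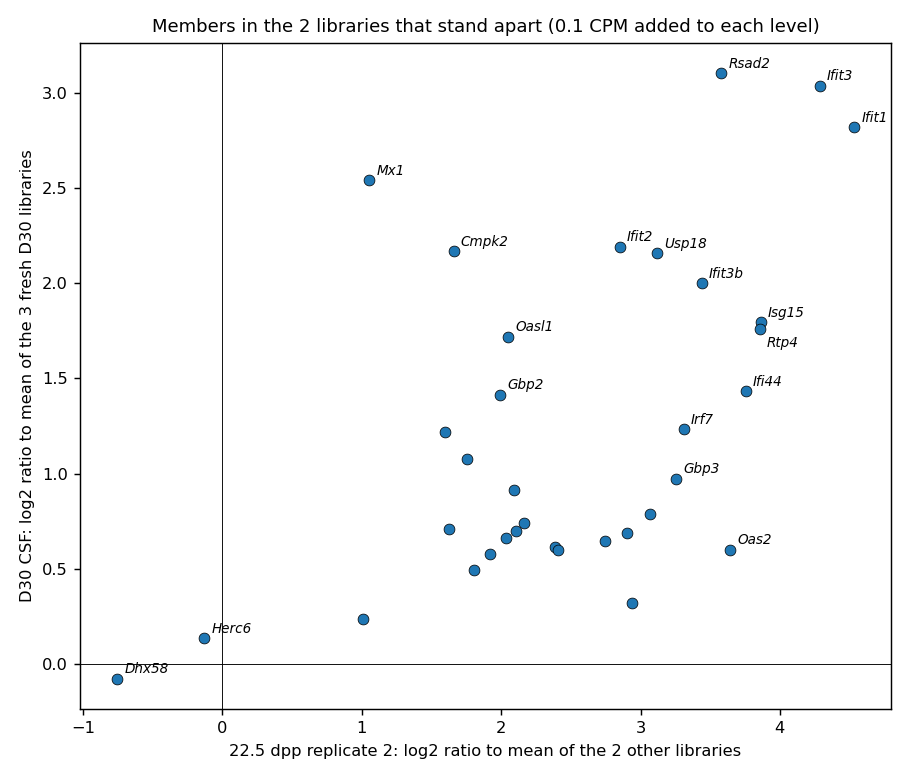
Each point is 1 of the 34 members, placed by its log2 ratio in 22.5 dpp replicate 2 to the mean of the 2 other 22.5 dpp libraries (x axis) and in the D30 CSF library to the mean of the 3 fresh D30 libraries (y axis). Ifit1, Ifit3 and Rsad2 lie far out on both axes, Mx1 is higher on the y axis than on the x axis, Oas2 is high mainly on the x axis, and Dhx58 and Herc6 lie near or below 0.

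Other genes moved in these libraries too. Of the 8 macrophage markers, 7 were highest in 22.5 dpp replicate 2 (summed 391 CPM against 291 to 307 CPM), the exception being Aif1. All 4 peritubular, all 4 endothelial and all 3 spermatogonial markers were also highest there (791 against 533 to 536 CPM, 59.8 against 37.7 to 37.9 CPM, and 138 against 67.8 to 70.4 CPM), and all 4 spermatid markers were lowest (7.68 against 44.7 to 52.2 CPM). In the D30 CSF library 3 of the 8 macrophage markers were above and 2 below all fresh libraries (868 against 497 to 789 CPM), and no spermatid marker lay outside the fresh range. The markers of T cells summed to at most 2.69 CPM, of neutrophils to at most 2.11 CPM and of plasmacytoid dendritic cells, the main makers of interferon alpha, to at most 2.89 CPM in any library, with Siglech at 0.1755 CPM in 22.5 dpp replicate 2 and at 0 in the CSF library. The 3 natural killer cell markers (Klrb1c, Ncr1 and Nkg7) summed to 0.483 CPM in 22.5 dpp replicate 2 against 0.158 to 0.316 CPM. Their sum was 2.61 CPM in the CSF library against 1.34 to 1.42 CPM in fresh tissue. At D4 it was 0.859 to 1.7 CPM against 0.112 to 0.195 CPM at 10.5 dpp. In culture these sums were nearly all Klrb1c. Ncr1 and Nkg7 were at 0 in the CSF library and at most 0.0435 and 0.029 CPM at D4. In 22.5 dpp replicate 2, Ncr1 (0.0878 CPM) and Nkg7 (0.154 CPM) were the highest of the age and Klrb1c was not. The part of these cells in the ISG levels was not tested.

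The interferon genes themselves were at or near 0. Ifnb1 was highest at 0.0504 CPM, in D30 fresh replicate 3, against 0.0502 CPM in the CSF library, and had no count in any 22.5 dpp library. Ifng was highest at 0.0594 CPM, in 36.5 dpp replicate 1, and at 0.0439 CPM in 22.5 dpp replicate 2. None of the 12 interferon genes looked at passed the filter on low counts. Of the 52 other pathway genes that did pass, 20 were more than 2-fold above in 22.5 dpp replicate 2 and 7 in the CSF library. Ifnar1, a chain of the type I receptor, was at 84 CPM in 22.5 dpp replicate 2 against 61.1 and 57.8 CPM, and at 105 CPM in the CSF library against 83.3 to 104 CPM. Cxcl10, a chemokine induced by interferons, was at 37.3 CPM in the CSF library against 3.33 to 5.35 CPM, but only at 1.62 CPM in 22.5 dpp replicate 2 against 0.475 and 0.537 CPM. Group results on the members that change with these libraries are given with and without them, a choice made after their values were seen.

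Per kilobase of exon, Bst2 (tetherin, which holds budding virus at the cell surface) was the highest of the 34 members at 6.5 dpp (51.2 CPM per kb), 10.5 dpp (36.2), 22.5 dpp (33.4), D4 (32.7), D16 (24.7) and D30 (35.7). At 36.5 dpp Dhx58 came first with 20.4 CPM per kb, followed by Bst2 with 8.49. Oas3 was lowest in each group, at most 0.0855 CPM per kb. Without replicate 2 the 22.5 dpp order changed, with Dhx58 first (21.3 CPM per kb) and Bst2 next (15.9).

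In vivo, no member was called between 10.5 and 6.5 dpp (0 of 34 by edgeR, with 1 at an unadjusted p under 0.05 and 0 by DESeq2, against 1.14% of all genes called). The median fold change of the members was -0.20 on the log2 scale, beside -0.005 over all genes. The 6.5 dpp group held 1 fresh and 3 CSF libraries and the 10.5 dpp group only fresh ones, so age and freezing are mixed here. Ifit1 was at 0.397 CPM in fresh and 0.317 to 0.414 CPM in CSF tissue at 6.5 dpp, and at 0.292, 0.278 and 0.364 CPM at 10.5 dpp. Rsad2 was at 0.705 to 0.973 CPM at 6.5 dpp and at 1.01, 1 and 1 CPM at 10.5 dpp.

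From 10.5 to 22.5 dpp, 16 members rose and 1 fell, against 33.6% of all genes rising and 27.9% falling. The 6 with the smallest p that rose were Dhx58, Herc6, Zbp1, Ifi44, Ifit1 and Mx2. Zbp1, a sensor of Z-form nucleic acids that can start necroptosis, was at 0.292, 0.25 and 0.164 CPM at 10.5 dpp and at 1.19, 5.92 and 1.3 CPM at 22.5 dpp, a log2 fold change of 3.81 ± 0.65 (SE, adjusted p = 7.5e-05). Ifi44 was at 0.139 to 0.218 CPM and then at 0.343, 5.48 and 0.284 CPM (3.68 ± 0.92, adjusted p = 0.0021). For Ifit1 (3.8 ± 1.09, adjusted p = 0.006) the groups overlapped, and Mx2 rose by 1.42 ± 0.41 (adjusted p = 0.006) from 1.22 to 1.67 CPM to 1.72, 5.81 and 1.99 CPM.

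The calls changed with 22.5 dpp replicate 2. Without it in any comparison, 3 members rose and 10 fell, beside 33.4% and 28.1% of all genes, and the median of the members went from 1.38 to -0.27. The 3 that still rose were Dhx58, Herc6 and Zbp1 (2.76 ± 0.56, adjusted p = 0.00046). The 10 that fell were Trim25, Parp9, Irf9, Ifit2, Stat2, Oasl2, Bst2, Oas1a, Gbp7 and Gbp2. Marker sums were also lower in 22.5 dpp replicates 1 and 3 than at 10.5 dpp, at 37.7 and 37.9 CPM against 179 to 200 CPM for endothelial, 533 and 536 CPM against 1618 to 1751 CPM for peritubular, and 67.8 and 70.4 CPM against 303 to 325 CPM for spermatogonial genes, and their part in the fall was not tested. Parp9, a mono-ADP-ribosyltransferase that works with an E3 ligase, went from 13.7 to 15.8 CPM at 10.5 dpp to 4.01 and 4.3 CPM in 22.5 dpp replicates 1 and 3, a log2 change of -1.48 ± 0.23 (adjusted p = 3.2e-05), while replicate 2 was at 22.4 CPM. Ifit2 went from 6.95 to 9.52 CPM to 1.72 and 1.3 CPM (-2.09 ± 0.6, adjusted p = 0.006), with 11.5 CPM in replicate 2. Irf9 and Stat2, the partners that give the ISRE-binding complex its DNA contact and its transactivation, went from 30.7 to 32.5 CPM to 13.3 and 14 CPM and from 34.5 to 39.5 CPM to 17.7 and 16.2 CPM.

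From 22.5 to 36.5 dpp, 23 members fell and 1 rose, against 27.5% of all genes falling and 23.3% rising, and the median of the members was -1.85 beside -0.13 over all genes. Ifih1, the sensor MDA5 for long double-stranded RNA, was at 5.12, 21.3 and 5.12 CPM at 22.5 dpp and at 1.25 and 1.39 CPM at 36.5 dpp (-2.43 ± 0.48, adjusted p = 0.0005). Irf7 reached its lowest level of all groups at 36.5 dpp, 1.01 and 1.26 CPM (-3.47 ± 0.78, adjusted p = 0.0014). Ifi35 fell from 5.6, 18.1 and 5.97 CPM to 1.93 and 2.03 CPM (-1.76 ± 0.41, adjusted p = 0.0019), Parp9 fell to 1.43 and 1.65 CPM (-2.16 ± 0.52, adjusted p = 0.0023), and Oasl2 fell to 3.03 and 3.21 CPM (-2.59 ± 0.63, adjusted p = 0.0027). In each of these, both 36.5 dpp libraries lay below all 22.5 dpp libraries. Without 22.5 dpp replicate 2, 11 members fell and 1 rose, beside 21.7% and 19.0% of all genes. Ifih1 (-1.51 ± 0.29, adjusted p = 0.0008), Irf7 (-1.61 ± 0.38, adjusted p = 0.0033) and Parp9 (-0.99 ± 0.25, adjusted p = 0.0052) were still among them. Leaving out either 36.5 dpp library from the full set also lowered the count, with a single library then left at that age. Spermatid genes rose in the same interval to the levels given above.

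**Figure D3:**
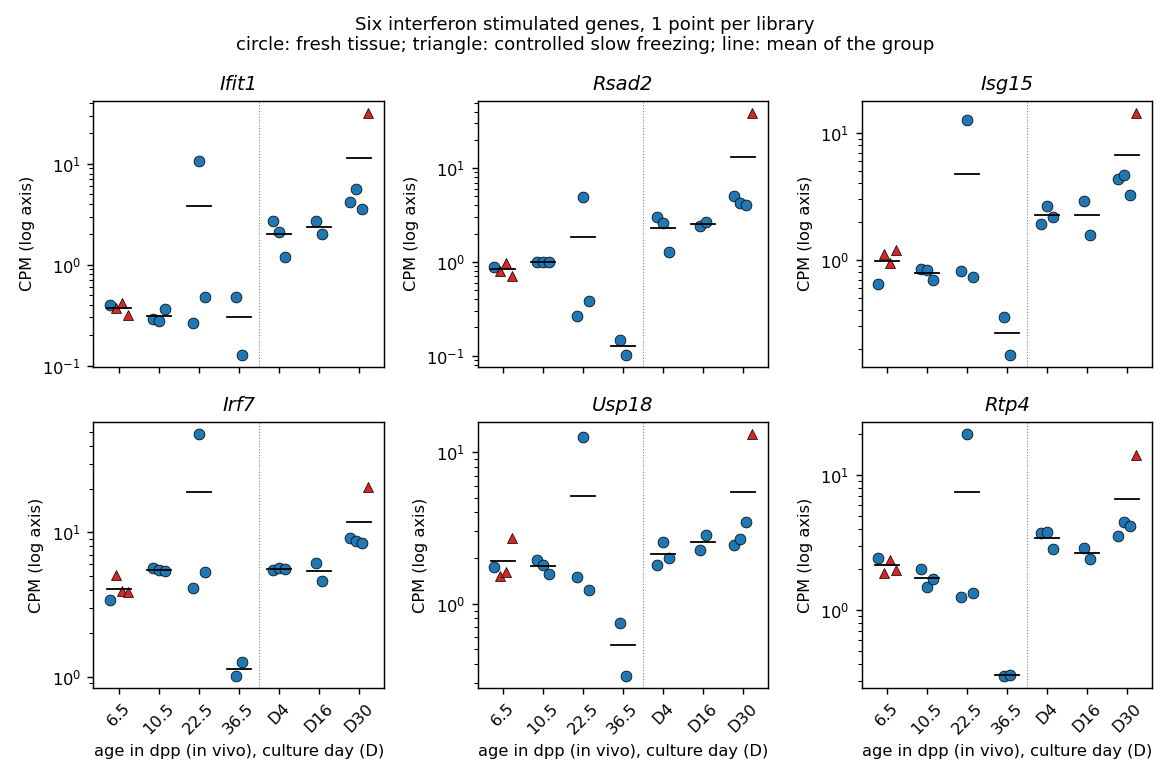
CPM (log axis) of Ifit1, Rsad2, Isg15, Irf7, Usp18 and Rtp4 in every library, by in vivo age in dpp and by culture day (D), with circles for fresh and triangles for CSF tissue and a line at the mean of each group. In each panel 1 of the 3 points at 22.5 dpp and the triangle at D30 lie far above the rest of their group, and, for all but Ifit1, both 36.5 dpp points are below every other group.

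Dhx58, Herc6, Trim25 and Mx1 took courses of their own. Dhx58, which encodes LGP2, a helicase that tunes the sensing of viral RNA, was at 1.69 to 3.07 CPM at 6.5 dpp and at 1.82, 2.34 and 1.44 CPM at 10.5 dpp. It was at 65.6, 41.3 and 73.9 CPM at 22.5 dpp, where replicate 2 was the lowest, and at 67 and 66.4 CPM at 36.5 dpp. The rise from 10.5 to 22.5 dpp was 5.33 ± 0.47 on the log2 scale (adjusted p = 4.0e-08). In culture it was at 1.62, 2.25 and 2.09 CPM at D4, at 33.3 and 12 CPM at D16, and at 34.1, 29.8, 12.3 and, in CSF tissue, 24.1 CPM at D30. It rose from D4 to D16 (3.57 ± 0.45, adjusted p = 9.5e-06) and was below the in vivo level at D16 (-1.58 ± 0.46, adjusted p = 0.019) and at D30 (-2.03 ± 0.39, adjusted p = 0.0002). Cultured and in vivo libraries did not overlap at either age.

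Herc6, the main ligase that attaches ISG15 in the mouse, was at 9.71 to 13.8 CPM at 6.5 dpp and 6.73 to 8.31 CPM at 10.5 dpp, and at 52.3, 41.8 and 39.2 CPM at 22.5 dpp (2.89 ± 0.31, adjusted p = 5.2e-07). At 36.5 dpp its libraries were apart, at 55.4 and 29.8 CPM. In culture it rose from 6.36 to 8.4 CPM at D4 to 26.4 and 14.9 CPM at D16 (1.54 ± 0.32, adjusted p = 0.0016). It was lower than in vivo at D16 (-1.26 ± 0.34, adjusted p = 0.014) and, with groups that overlapped, at D30 (-1.41 ± 0.3, adjusted p = 0.0005). Trim25, a ubiquitin ligase that helps RIG-I signal, ran the other way. It was at 134 to 144 CPM at 6.5 dpp, 142 to 149 CPM at 10.5 dpp, 39.6, 78.3 and 38 CPM at 22.5 dpp (-1.21 ± 0.22, adjusted p = 0.00011) and 16.7 and 17.1 CPM at 36.5 dpp (-1.08 ± 0.25, adjusted p = 0.0016). In culture it went from 119 to 143 CPM at D4 to 62.2 and 90.7 CPM at D16 (-0.72 ± 0.24, adjusted p = 0.037), and at D30 it was 1.65 ± 0.25 above 36.5 dpp (adjusted p = 2.0e-05).

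Mx1 was the 1 member that rose from 22.5 to 36.5 dpp, from 0.607, 1.49 and 0.727 CPM to 3.15 and 3.94 CPM (2.44 ± 0.64, adjusted p = 0.0045; 2.86 ± 0.75, adjusted p = 0.0067 without 22.5 dpp replicate 2). Its close relative Mx2 was at 1.07 and 1.9 CPM at 36.5 dpp against 1.72, 5.81 and 1.99 CPM. The fresh D30 libraries were at 1.14 to 1.16 CPM for Mx1, under both 36.5 dpp libraries. Spermatocyte genes (Sycp1, Sycp3 and Spo11 together) stood at 148 to 192 CPM at 10.5 dpp, 545 to 773 CPM at 22.5 dpp and 244 to 353 CPM at 36.5 dpp, so they were higher with Dhx58 and Herc6 at 22.5 dpp but lower again at 36.5 dpp, where Dhx58 was not. In 22.5 dpp replicate 2 their sum was the highest of the age, through Sycp1 and Sycp3. Spo11 was the lowest of the age there (101.5 against 123.2 and 125.9 CPM), as were Dhx58 and each of the spermatid genes. Spermatid genes were highest at 36.5 dpp, where Mx1 was high, but in the D30 CSF library, where Mx1 was highest, their sum of 380.5 CPM lay within the range of the fresh D30 libraries. Their part in these levels was not tested.

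**Figure D4:**
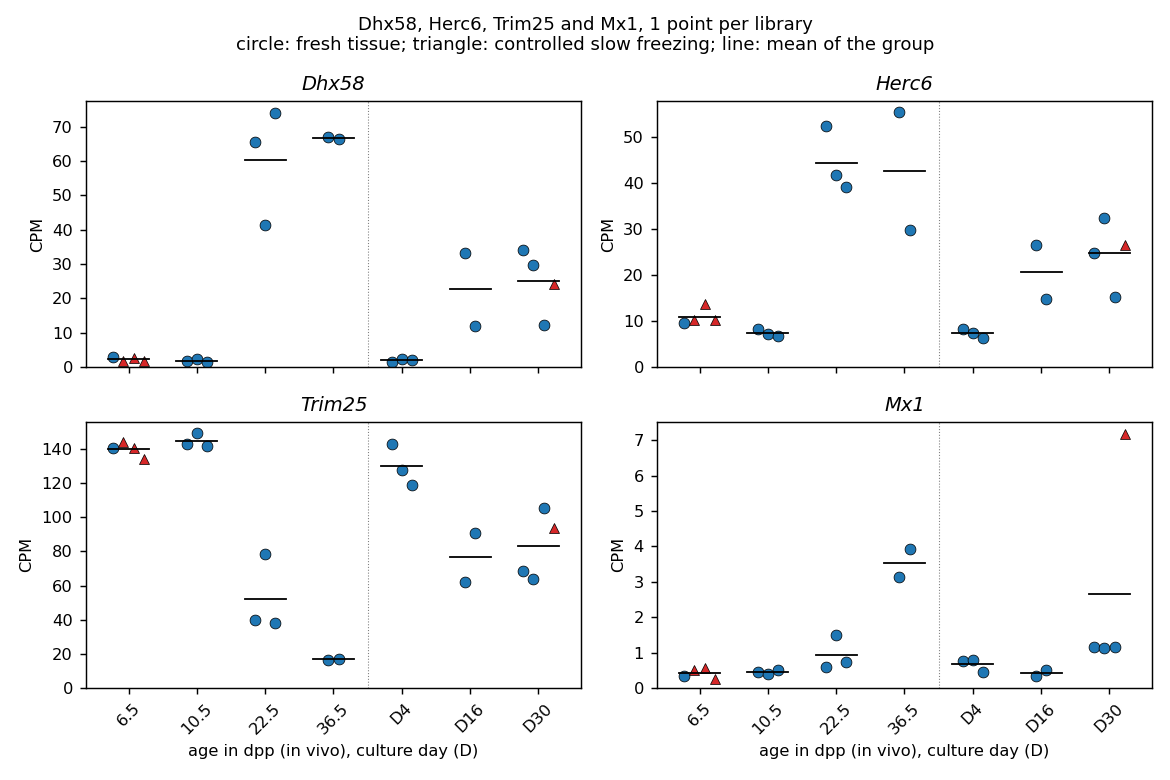
CPM (linear axis from 0) of Dhx58, Herc6, Trim25 and Mx1 in every library, by in vivo age in dpp and by culture day (D), with circles for fresh and triangles for CSF tissue and a line at the mean of each group. Dhx58 and Herc6 step up at 22.5 dpp and D16, Trim25 steps down, and Mx1 is highest in the D30 CSF library, above both 36.5 dpp libraries.

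After 4 days of culture 28 of the 34 fold changes against 10.5 dpp were above 0, but none passed the test over all libraries. No member was called (0 of 34 by edgeR, with 1 at an unadjusted p under 0.05 and 1 by DESeq2, against 8.10% of all genes called in either direction), and the median of the members was 0.42 beside -0.006 over all genes. In 12 members every D4 library lay above every 10.5 dpp library (17.3% of all genes did), and in 3 every D4 library lay below (31.2% of all genes). Ifit1 was at 2.74, 2.09 and 1.2 CPM at D4 against 0.292, 0.278 and 0.364 CPM (2.76 ± 1.07, adjusted p = 0.14). Isg15 was at 1.93, 2.66 and 2.17 CPM against 0.853, 0.834 and 0.691 CPM, and Rsad2 at 3.04, 2.61 and 1.27 CPM against 1.01, 1 and 1 CPM. Xaf1, a proapoptotic factor, was at 5.8, 5.59 and 5.59 CPM against 3.59, 3.17 and 3.04 CPM. None of these 4 genes overlapped between the groups.

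The call depended on the high libraries and on which libraries shared the fit. The high libraries are in neither group compared and were picked because members were high in them. They bear on these calls only through the fit that all libraries share. Without 22.5 dpp replicate 2, 2 members were called higher at D4, beside 5.13% of all genes, namely Ifit1 (2.76 ± 0.73, adjusted p = 0.025) and Isg15 (1.59 ± 0.47, adjusted p = 0.046). Without the D30 CSF library as well, Rtp4 and Rsad2 joined them (4.99% of all genes were higher). With only the libraries of D4 and 10.5 dpp in the fit, 12 members were called, all higher, beside 20.3% of all genes. Against 6.5 dpp, the age at which the explants were taken, no member was called either (3 at an unadjusted p under 0.05, 1 by DESeq2, against 20.9% of all genes), and the median of the members was 0.46. The D4 explants were fresh, but the 6.5 dpp group held 1 fresh and 3 CSF libraries, so culture and freezing are mixed in this comparison. Without 22.5 dpp replicate 2, Ifih1, Xaf1 and Ifit1 were called higher than at 6.5 dpp, beside 11.0% of all genes. Of the macrophage markers, Csf1r was at 3.53 to 4.46 CPM at D4 and 23.9 to 30.9 CPM at 10.5 dpp, Adgre1 at 1.62 to 2.21 CPM and 10.1 to 14.4 CPM, and the 8 together at 64.9 to 90.8 CPM and 163 to 217 CPM. C1qa, Csf1r, Cx3cr1, Adgre1 and Mrc1 were called lower at D4 than at 10.5 dpp. Lyz2 (0.011 on the log2 scale), Aif1 (-0.709) and Cd68 (-0.712) were not called. The part of macrophages in the members' levels was not tested.

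Other genes of the pathway were called at D4, of which Socs3, Sting1, Cxcl10 and Tlr7 are described. Socs3, a feedback inhibitor of cytokine receptors, was at 30.3, 40.8 and 38.6 CPM against 10.6 to 12.1 CPM at 10.5 dpp (1.78 ± 0.22, adjusted p = 3.5e-05). Sting1, the adaptor of cytosolic DNA sensing, was at 7.06, 8.97 and 8.84 CPM against 4.5 to 5.07 CPM (0.88 ± 0.2, adjusted p = 0.011). Cxcl10 was at 3.55, 3.29 and 2.88 CPM against 0.225, 0.278 and 0.345 CPM (3.58 ± 0.85, adjusted p = 0.012). Tlr7, the endosomal sensor of single-stranded RNA, fell, to 0.377 to 1.1 CPM from 1.6 to 2.28 CPM (-1.48 ± 0.4, adjusted p = 0.028). Socs3, Sting1 and Cxcl10 lay above 10.5 dpp in every library. Irf1, Ifnar1 and Ifnar2 were not called (adjusted p = 0.95, 0.98 and 0.36), and Ifnb1 and Ifng had no count in any library of either group.

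At D16 the comparison with 22.5 dpp changed direction with 22.5 dpp replicate 2. With it, 4 members were lower in culture and none higher, against 11.8% of all genes lower and 14.0% higher, and the median of the members was -1.08 beside -0.085 over all genes. The 4 were Herc6, Dhx58, Oas2 (0.251 and 0.35 CPM against 0.607, 7.11 and 0.348 CPM; -3.22 ± 1.03, adjusted p = 0.031) and Zbp1 (1.18 and 0.393 CPM against 1.19, 5.92 and 1.3 CPM; -1.93 ± 0.68, adjusted p = 0.044). Without it, 8 members were higher and 2 lower, against 16.6% and 15.6% of all genes, and the median was 0.66. The 2 that stayed lower were Dhx58 (-1.83 ± 0.47, adjusted p = 0.0084) and Herc6 (-1.37 ± 0.37, adjusted p = 0.011). The 8 higher were Parp9, Trim25, Gbp2, Rsad2, Stat2, Ifi35, Ifit1 and Oasl2. Parp9 was at 13.6 and 17 CPM at D16 against 4.01 and 4.3 CPM (1.66 ± 0.24, adjusted p = 0.00022), and Rsad2 at 2.44 and 2.67 CPM against 0.264 and 0.379 CPM (2.77 ± 0.94, adjusted p = 0.034). With only 2 libraries at D16 the call also hung on them, and without D16 replicate 2 no member was called.

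From D4 to D16, Dhx58 and Herc6 rose and Trim25 fell, as given above, which makes 2 higher and 1 lower beside 18.4% and 5.48% of all genes, and without D16 replicate 1 only Dhx58 was called. The median of the members was -0.09. From D16 to D30 none was called (4 at an unadjusted p under 0.05, 1 by DESeq2, against 1.79% of all genes), with 33 of the 34 fold changes above 0, with a median of 0.91. That median was 0.29, with 1 member (Xaf1) called higher beside 1.92% of all genes, without the D30 CSF and 22.5 dpp replicate 2 libraries.

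At D30 the members were higher than in 36.5 dpp testes in most cases. Of the 34, 23 were higher and 2 lower, against 32.4% of all genes higher and 35.0% lower, and the median was 1.92 beside -0.03 over all genes. All 3 transcription factors, all 4 IFIT genes and both polymerases were among the higher, with 1 of the 3 sensors, 3 of the 5 OAS genes, 2 of the 5 GTPases, 3 of the 4 genes of the ISG15 system and 5 of the 8 other effectors. Both lower members, Dhx58 and Herc6, were described above. The 6 higher members with the smallest p were Trim25, Ifi35, Ifih1, Gbp2, Parp9 and Rsad2. Of these, the fresh D30 means of Trim25, Parp9 and Ifi35 were 79.3, 10.4 and 11.1 CPM. They were lower than at 6.5 dpp (140, 17.1 and 14.8 CPM) and 10.5 dpp (145, 14.9 and 11.25 CPM). Gbp2 (8.52 CPM) lay between those ages (8.64 and 6.31 CPM). Ifih1 (9.13 CPM) and Rsad2 (4.44 CPM) lay above both (5.34 and 8.08 CPM, 0.836 and 1.004 CPM). D30 was not tested against these ages.

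Ifi35, which forms a complex with Nmi, was at 10.8, 9.22 and 13.2 CPM in fresh and 18.2 CPM in CSF explants against 1.93 and 2.03 CPM (2.05 ± 0.4, adjusted p = 0.00027). Ifih1 was at 8.43, 8.18, 10.8 and, in CSF, 14.5 CPM against 1.25 and 1.39 CPM (2.34 ± 0.46, adjusted p = 0.00027). Gbp2, a guanylate binding protein that attacks vacuoles of pathogens, was at 8.11, 10.3, 7.1 and 22.9 CPM against 1.46 and 0.977 CPM (2.68 ± 0.59, adjusted p = 0.00068). In all 3 genes each cultured library lay above both testes. Parp9 was at 8.77, 9.27, 13.1 and 15.8 CPM against 1.43 and 1.65 CPM (2.28 ± 0.5, adjusted p = 0.00072). Rsad2 was at 5, 4.26, 4.05 and 38.9 CPM against 0.148 and 0.103 CPM, the widest gap among these 6 genes (6.03 ± 1.35, adjusted p = 0.00081), and the 3 fresh explants alone also lay far above both testes. The testis libraries held only 5 and 4 counts of Rsad2.

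The comparison was also made without the high libraries. Without the D30 CSF library 20 members were higher and 3 lower, beside 31.6% and 33.7% of all genes. Without it and 22.5 dpp replicate 2 the counts were 24 and 3, beside 31.6% and 33.7% again, and the median was then 1.69. The additional lower member was Mx1 (-2.25 ± 0.32, adjusted p = 2.3e-05 without both). The spermatid genes that fill 36.5 dpp testes were far lower at D30, as given above, and the summed macrophage markers were at 497 to 868 CPM at D30 and 547 to 562 CPM at 36.5 dpp. Endothelial markers summed to 130.5 to 174 CPM at D30 against 17.1 to 20 CPM at 36.5 dpp, and peritubular markers to 940 to 1519 CPM against 137 to 237 CPM. Of the 8 macrophage markers, 6 (Cd68, Csf1r, Cx3cr1, Adgre1, Lyz2 and Mrc1) were called higher at D30 and 1 lower. Aif1 fell by 3.98 on the log2 scale (adjusted p = 3.2e-06), and Adgre1 rose by 1.46 (adjusted p = 0.00022) and Lyz2 by 2.15 (adjusted p = 0.00084). Aif1 was at 399 and 433 CPM in the 36.5 dpp testes against 20.9, 7.79 and 26.2 CPM at 22.5 dpp. The part of these cells in the members' levels was not tested.

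The pathway around the members was also higher at D30. Of the 52 pathway genes tested, 33 were higher and 1 lower, beside the 32.4% and 35.0% of all genes given above, and 33 and 1 without both high libraries. All 6 receptor genes and 3 of the 4 JAK-STAT genes were higher, with 8 of the 12 sensors and adaptors and 12 of the 21 interferon gamma targets. Ifnar1 was at 83.3 to 105 CPM against 21.9 and 19.6 CPM (1.56 ± 0.16, adjusted p = 5.8e-07), Ifnar2 at 23.4 to 37.1 CPM against 9.3 and 4.78 CPM (1.52 ± 0.27, adjusted p = 8.7e-05) and Irf1 at 20 to 34.7 CPM against 1.84 and 2.8 CPM (2.92 ± 0.28, adjusted p = 2.3e-07). Socs3 had the smallest p of the 52 (3.92 ± 0.29, adjusted p = 2.4e-08). The 1 that was lower, Nlrc5, the transactivator of MHC class I genes, was at 0.861 to 2.12 CPM against 5.94 and 9.88 CPM (-3.24 ± 0.45, adjusted p = 9.5e-06). In vivo, Ifnar1 and Irf1 had fallen from 10.5 to 22.5 dpp (-0.86 ± 0.14, adjusted p = 5.6e-05, and -1.88 ± 0.23, adjusted p = 1.8e-06) and again to 36.5 dpp (-1.19 ± 0.17, adjusted p = 2.5e-05, and -1.88 ± 0.27, adjusted p = 3.4e-05). At D16, 11 pathway genes were higher and 4 lower than at 22.5 dpp, beside 14.0% and 11.8% of all genes, and without 22.5 dpp replicate 2 the counts were 15 and 3, beside 16.6% and 15.6%. With all libraries, Irf1 (1.35 ± 0.24, adjusted p = 0.00094) and Ifnar2 (1.19 ± 0.26, adjusted p = 0.0035) were among the higher.

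**Figure D5:**
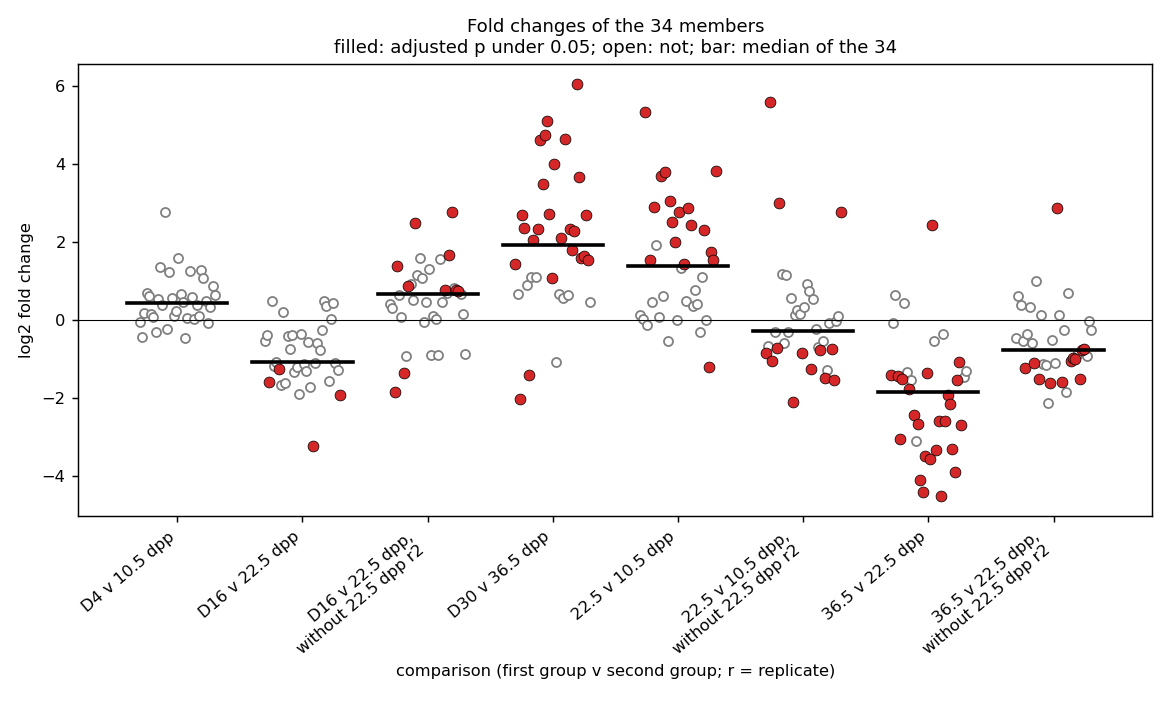
log2 fold change of each of the 34 members (points) in 5 comparisons, 3 of them also without 22.5 dpp replicate 2, with filled points for an adjusted p under 0.05 and a bar at the median of the 34. The bar is at -1.08 for D16 against 22.5 dpp and at 0.66 without replicate 2, and at 1.38 and -0.27 for 22.5 against 10.5 dpp, while for D30 against 36.5 dpp it is at 1.92.

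The culture effect, meaning the difference of a cultured group from its age-matched testis, was also compared between days as a signed value. Such a value moves with the in vivo level too. Mean Trim25 went from 145 to 16.9 CPM between 10.5 and 36.5 dpp, and from 130 to 82.9 CPM between D4 and D30. Mean Rsad2 went from 1.004 to 0.126 CPM and from 2.31 to 13.05 CPM. The effect was more positive at D30 than at D4 in 11 members and more negative in 2, beside 25.8% and 20.7% of all genes. Trim25 (1.71 ± 0.32, adjusted p = 0.00041), Ifit2 (3.72 ± 1.05, adjusted p = 0.008), Parp9 (2.18 ± 0.63, adjusted p = 0.0097), Ifih1 (1.96 ± 0.58, adjusted p = 0.01), Rsad2 (4.74 ± 1.55, adjusted p = 0.018) and Oasl2 (2.31 ± 0.77, adjusted p = 0.02) led those with a more positive effect, and Dhx58 (-2.22 ± 0.57, adjusted p = 0.0046) and Herc6 (-1.49 ± 0.42, adjusted p = 0.0082) had a more negative one. The count fell when either 36.5 dpp library was left out, with a single library then left at that age. It was 22 without 22.5 dpp replicate 2 in any comparison (20 more positive and 2 more negative, beside 25.9% and 21.2% of all genes). Between D16 and D4 no member was called (10 at an unadjusted p under 0.05, 4 by DESeq2, against 9.61% of all genes in either direction), and without 22.5 dpp replicate 2 there were 4 (Parp9 and Trim25 more positive, Dhx58 and Herc6 more negative, beside 8.43% and 6.72% of all genes), and without D16 replicate 1 there were 3.

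Freezing was tested over both stages with 1 term for CSF against fresh tissue. No member was called (0 of 34 by edgeR, with 5 at an unadjusted p under 0.05 and 0 by DESeq2), and neither was any other gene (0%, with 1261 at an unadjusted p under 0.05 and 4 called by DESeq2). The study listed Ifit1 and Ifit3 as changed by freezing, in a cluster it associated with the response to interferon. It used a fold change at 6.5 dpp or at D30 and a LIMMA test across samples, with fewer CSF libraries at 6.5 dpp than the labels give. The single term over both stages used here does not repeat that comparison. By this term their log2 fold changes were 1.7 ± 0.83 and 1.16 ± 0.97 (adjusted p = 0.65 and 0.67, and between 0.32 and 1 and between 0.47 and 1 over the alternatives). Without the D30 CSF library both turned, to -0.06 and -1.6. Ifit3 was at 0.731 CPM in fresh and 0.291, 0 and 0.423 CPM in CSF tissue at 6.5 dpp, and at 1.5, 2.38 and 2.77 CPM in fresh and 18.9 CPM in CSF explants at D30.

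At 6.5 dpp, where 3 CSF libraries stood beside 1 fresh library, the fresh level lay inside the CSF range for 21 members, above it for 8 and below it for 5, beside 20.4% of all genes above and 14.6% below. Isg15 was at 0.647 CPM in fresh and 1.12, 0.949 and 1.2 CPM in CSF tissue, and Irf7 at 3.42 CPM in fresh and 5.07, 3.92 and 3.88 CPM in CSF tissue. Ifi27l2a, a small membrane protein gene, ranged widely among the CSF libraries, at 1.85, 8.17 and 21.1 CPM against 2.76 CPM in fresh tissue. The highest of these was CSF replicate 3, which had the lowest library total. In it 6.13% of all genes were more than 2-fold above every other 6.5 dpp library and 12.7% more than 2-fold below. Whether the D30 CSF levels belong to freezing followed by culture or to that 1 library cannot be told apart, since there is a single library of that kind.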

How the data were processed

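Testis and explant RNA was sequenced as poly(A)-selected, stranded TruSeq libraries with single reads of 50 bases. The authors demultiplexed with bcl2fastq 2.17.1.14, aligned to GRCm38 with STAR 2.7.3a and made raw counts per Entrez gene with HTSeq 0.12.4 (intersection-nonempty), and the deposited counts were used as they are. The strand setting of the counting is not given in the sources used here. Entrez numbers were matched to symbols and positions of GRCm38.p6 (RefSeq), and exon lengths came from GENCODE.

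Levels are CPM on the library total. Groups were the 7 stages, with an added term for freezing, fitted with edgeR 4.0.16 (R 4.3.3; filterByExpr, TMM, quasi-likelihood F test) over 19255 genes, with Benjamini-Hochberg adjustment over all of them. The text gives errors as standard errors of the fit. Alternatives were DESeq2 1.42.0, other scalings and filters, fits on fewer groups, a replicate block and each library left out. Leaving out 22.5 dpp replicate 2, alone or with the D30 CSF library, was chosen after seeing the data. The scripts were tested on simulated counts. The study calls the libraries biological replicates, but which animals each holds is not given in the sources used here, so p-values measure the spread between these libraries.

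The members and lists were chosen with earlier results of these data known. All members could be named, with full statistics for at most 6 called members in each direction of a comparison, and at most 3 called pathway genes in each direction beside Irf1, Ifnb1, Ifng, Ifnar1 and Ifnar2. A pathway gene named by this rule is not reported here. Figures were drawn with matplotlib 3.10.9.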

Additional observations from a re-analysis of the deposited data

Results flagged for a closer look

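In groups of 4 libraries, 18 of the 68 member and group pairs examined had 1 library far from the others by Dixon's criterion. Chance meets it in about 1 of 20 groups of like libraries. Both groups mix fresh and CSF libraries, and the members share the same libraries, so the 18 cannot be set against that rate. Of these, 14 were the D30 CSF library: Irf7 at 20.7, Ifit1 at 32.0, Ifit2 at 22, Ifit3 at 18.9, Ifit3b at 7.11, Mx1 at 7.18, Mx2 at 6.53, Gbp3 at 11.5, Gbp7 at 9.67, Isg15 at 14.4, Usp18 at 13.1, Rsad2 at 38.9, Cmpk2 at 19.0 and Rtp4 at 14.1 CPM. The other 4 were at 6.5 dpp, with Ifit3b at 0.0832 CPM and Mx2 at 1.75 CPM in CSF replicate 1, Herc6 at 13.8 CPM in CSF replicate 2 and Ifi35 at 19.7 CPM in CSF replicate 3.

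The culture effect differed between D30 and D4 in 13 members by the test of the difference itself (edgeR). On the log2 scale the difference was 2.61 for Irf7, 1.96 for Ifih1, -2.22 for Dhx58, 3.72 for Ifit2, 4.54 for Ifit3b, 2.31 for Oasl2 and 2.00 for Gbp2. It was -1.49 for Herc6, 1.71 for Trim25, 4.74 for Rsad2, 1.49 for Bst2, 1.5 for Ifi35 and 2.18 for Parp9.

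The 6.5 dpp fresh replicate 1 library entered no comparison. It held Dhx58 at 29.25 CPM and Ifit1 at 1.18 CPM, each more than 2-fold above all 4 analysed 6.5 dpp libraries, while Oas1a at 0.4095 CPM and Bst2 at 12.2 CPM were more than 2-fold below all 4.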

How the results depend on the processing

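Of the alternatives for single genes, 615 kept direction and side of the threshold, 50 lost the call, 4 gained it and 4 turned. The 4 that turned were the freezing term of Ifit1 (-0.058 without the D30 CSF library and -0.058 without both high libraries) and of Ifit3 (-1.603 and -1.606). Without 6.5 dpp fresh replicate 2, the 1 fresh library of that age, the freezing terms were 2.793 and 3.056. Numbers of members called moved as follows, and the cause was not tested. They are given without the share of all genes called, which moved too, so they do not set the members apart from other genes. With only the groups compared, 4505 of 18188 genes were higher and 3198 lower for 36.5 against 22.5 dpp. With only the groups compared there were 12 for D4 against 10.5 dpp, 0 for D16 against 22.5 dpp, 15 for 36.5 against 22.5 dpp, 5 for D4 against 6.5 dpp, and 3 and 21 for the D16 and D30 effects against D4. Without 22.5 dpp replicate 2 these were 2, 10, 12, 3, 4 and 22, and without both high libraries 4, 13, 14, 9, 4 and 22, with 1 for D30 against D16 in either case. DESeq2 called 1 for D4 against 10.5 dpp, 1 for D4 against 6.5 dpp, 1 for D30 against D16 and 4 for the D16 effect. With 6.5 dpp fresh replicate 1 there were 0 for D16 against 22.5 dpp and 1 for D16 against D4. Fresh libraries alone gave 1 for the D16 effect, and library size alone 20 for the D30 effect. Requiring a log2 fold change of 2 and an adjusted p of 0.001 left 0 for D16, 6 for D30, 3 for 22.5 against 10.5 dpp, 1 for 36.5 against 22.5 dpp, 1 for D16 against D4 and 0 for the D30 effect.

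With each library of the groups compared left out in turn, the number ran from 0 to 0 for D4 against 10.5 dpp, 0 to 10 for D16 against 22.5 dpp, 19 to 25 for D30 against 36.5 dpp, 12 to 19 for 22.5 against 10.5 dpp, 11 to 26 for 36.5 against 22.5 dpp, 1 to 3 for D16 against D4, 0 to 1 for D30 against D16 (1 without D30 fresh replicate 3), 0 to 4 for the D16 effect and 5 to 13 for the D30 effect. By the same measure it stayed at 0 for 10.5 against 6.5 dpp, D4 against 6.5 dpp and freezing. The share of all genes called also moved with the library left out.

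The replicate numbers were not taken as pairs. Same-numbered libraries were correlated after the mean of each group had been subtracted from the log CPM of each gene. The values were 0.203, 0.0268 and -0.0083 for D4 with 10.5 dpp and 0.525 and 0.661 for D16 with 22.5 dpp. For D30 with 36.5 dpp they were -0.345 and -0.325. In the groups of 2 libraries, D16 and 36.5 dpp, these deviations mirror each other, so the values of such a group are not independent. With the replicate block, 0 members were called at D4, 3 at D16, 24 at D30, 1 for D4 against 6.5 dpp and 1 for the D16 effect. Of all 19255 genes, 6192 were then higher and 6621 lower at D30. With 2 to 4 libraries a group, and 5 or fewer counts of Rsad2 in each 36.5 dpp library, small changes in low members were not detectable.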
